A study of Mus musculus with 13 samples.

Results

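Small noncoding RNAs that work by folding into a fixed structure were taken from a sequencing study of double-stranded RNA (dsRNA) in mouse melanoma cells. The members are 7SK RNA (Rn7sk), the 2 genes of 7SL RNA (Rn7s1 and Rn7s2), the RNA of RNase MRP (Rmrp), the RNA of RNase P (Rpph1) and telomerase RNA (Terc), chosen by symbol among the rows of a gene count table after matching Ensembl identifiers to the GENCODE annotation of mouse build GRCm38. The 6 symbols have 7 of the 54532 rows of the table, because Rmrp has 2 rows. Only 3 of the 7 rows, Rn7sk, Rn7s1 and Rn7s2, reached a mean of 1 CPM (counts per 1000000 counts of the library) over the libraries used.

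YUMM1.7 cells, an established mouse melanoma line of wild-type genotype per the labels, received DMSO, 10 µM ADAR1i-124 for 12 h, 1 µM 5-AZA-CdR for 72 h or both compounds. ADAR1i-124 was made to block ADAR1, the enzyme that changes adenosine to inosine in dsRNA, and 5-AZA-CdR blocks DNA methylation. Total RNA was sequenced after removal of ribosomal RNA, and further RNA was precipitated with J2, an antibody to dsRNA, with Z22, an antibody to left-handed Z-form nucleic acid, or with IgG as the control. Per the study's methods, RNA for precipitation was first treated with an RNase that cuts single strands. Each condition has 1 library, so 12 libraries were used: 3 of total RNA, 4 of J2, 4 of Z22 and 1 of IgG. For the combination, 1 µM 5-AZA-CdR for 72 h was followed by 10 µM ADAR1i-124 for 12 h per the study's description of that treatment, while the labels of these libraries give no dose. What the cells used for IgG had received is not given in the sources used here. The library of total RNA with both compounds was left out because its counted reads follow the strand opposite to the genes.

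These RNAs are made in nearly every cell and most of them by RNA polymerase III. 7SK holds the kinase P-TEFb in an inactive form with HEXIM and LARP7 proteins, and so limits the release of paused RNA polymerase II. 7SL is the scaffold of the signal recognition particle, which brings ribosomes that make secreted proteins to the endoplasmic reticulum, and it is the ancestor of the rodent B1 and primate Alu repeats. RNase P cuts the leader from tRNA precursors, RNase MRP acts on ribosomal RNA precursors, and telomerase RNA is the template for telomere repeats. All of them fold back on themselves into stems joined by loops.

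The sequences decide how far the counts of these genes can be told apart, so 2 that matter for the counts are shown first, 5′ to 3′, as DNA letters from the GENCODE transcripts, each of which was identical to build GRCm38 at its position. For 7SK, bases 1 to 300 of 331 (chr9:78175334-78175633, minus strand) are given, with the 241 bases that recur without a mismatch in the gene Gm24447 in capitals. The 7SL genes Rn7s1 (chr12:69159295-69159594, plus strand) and Rn7s2 (chr12:69361182-69361481, minus strand) have the same 300 bases, of which a stretch of 171 also occurs in the third 7SL gene, Rn7s6. For RNase P RNA, bases 1 to 300 of 319 (chr14:50807468-50807767, minus strand) are given, with capitals for bases that no exon of the overlapping gene Ccnb1ip1 covers.
Rn7sk: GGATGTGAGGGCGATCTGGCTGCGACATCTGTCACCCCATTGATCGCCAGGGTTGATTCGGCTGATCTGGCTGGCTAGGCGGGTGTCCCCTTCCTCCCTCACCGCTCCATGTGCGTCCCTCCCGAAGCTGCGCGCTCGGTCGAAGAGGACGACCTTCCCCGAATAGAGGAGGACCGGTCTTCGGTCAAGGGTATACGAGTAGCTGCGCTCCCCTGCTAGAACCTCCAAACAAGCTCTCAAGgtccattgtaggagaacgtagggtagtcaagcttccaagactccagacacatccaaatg
Rpph1: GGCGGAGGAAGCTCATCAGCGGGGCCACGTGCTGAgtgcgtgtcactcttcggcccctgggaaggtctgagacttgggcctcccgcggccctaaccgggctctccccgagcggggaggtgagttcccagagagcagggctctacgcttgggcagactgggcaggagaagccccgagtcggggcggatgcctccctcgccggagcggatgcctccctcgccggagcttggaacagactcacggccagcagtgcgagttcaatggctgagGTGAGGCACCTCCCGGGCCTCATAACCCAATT

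A read that lies wholly inside Rn7s1 cannot be told from one inside Rn7s2. The identity of these genes ended 2 bases before and 2 bases after the transcribed 300 bases. All 251 of the 50-base windows of Rn7s1 occur at least once more in the genome, and so do all 151 of its 150-base windows. In Rn7sk, 192 of 282 windows of 50 bases and 92 of 182 windows of 150 bases occur elsewhere, which are the windows inside the stretch shared with Gm24447, a gene that is 83.6% identical over the whole alignment. Rn7s6 is 85.2% identical to Rn7s1. By contrast, none of the 50-base windows of Rpph1 (270), Terc (374) or the shorter Rmrp row (222) occurs a second time. How reads that map to several places were treated is not given in the sources used here, so the values of Rn7s1, Rn7s2 and, in part, Rn7sk are uncertain as values of single genes.

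All members were predicted to pair most of their bases, without other RNAs as a comparison. In the minimum free energy structures, 68.7% of the bases of 7SL were paired, against 61.0% in 7SK, 71.5% in RNase P RNA, 62.7% in RNase MRP RNA (shorter row) and 61.9% in telomerase RNA. The longest helix without a bulge was short in each, with 9 base pairs in 7SL and telomerase RNA, 8 in RNase P RNA, 7 in 7SK and 6 in RNase MRP RNA. The longest stretch in which purines and pyrimidines alternate, the sequence type that most readily takes the Z form, had 18 bases in RNase MRP RNA and 7 to 9 bases in the others.

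The libraries held 17015425 to 34571822 counts in total RNA, 11767409 to 14396132 in J2, 8167960 to 14663357 in Z22 and 15324595 in IgG. Of the melanocyte lineage markers in total RNA, Mitf was at 20.3 to 33.1 CPM, while Dct, Tyrp1, Pmel and Sox10 were at 0 to 0.434 CPM. Ptprc, a leukocyte marker, had 0 and 1 counts with DMSO and ADAR1i-124 and 42 counts with 5-AZA-CdR, and the keratinocyte marker Krt14 had 0 in all 3. The Z22 library of DMSO cells stood apart: the gene Gm42418, which overlaps ribosomal RNA sequence, took 34.9% of its counts and 10.6 to 15.8% of those of the other Z22 libraries. The edgeR fits, the counts of member comparisons past 2-fold and the correlations are also given without this library. Intervals are exact 95% binomial intervals and cover counting error only, since without molecular identifiers reads are not independent molecules, and they say nothing of the spread between cultures.

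7SK was the most abundant member in every library. It took 0.156% of the counts in total RNA of DMSO cells (1556 CPM, 26473 counts), 0.333% with ADAR1i-124 (3327 CPM, 58619 counts) and 0.364% with 5-AZA-CdR (3635 CPM, 125671 counts). Per kilobase of exon it ranked second among all genes with DMSO and first with either compound. In total RNA both treated libraries thus lay above that of DMSO. In bulk RNA, less of an RNA in each cell and fewer cells that hold it cannot be told apart.
All 4 J2 libraries had a higher share of 7SK than the 3 of total RNA, with 0.395% in DMSO, 0.450% in ADAR1i-124, 0.497% in 5-AZA-CdR and 0.440% in combination cells. The Z22 libraries ranged more widely, from 0.0630% with DMSO through 0.332% with 5-AZA-CdR and 0.346% with ADAR1i-124 to 0.670% with the combination. The IgG library held 0.478%, a share above 3 of 4 J2 libraries and 3 of 4 Z22 libraries. Only the J2 library of 5-AZA-CdR cells and the Z22 library of the combination were above IgG, the first of them by a log2 ratio of 0.06 that turned to -0.08 with TMM factors and -0.04 with DESeq2 size factors in place of library totals.

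The 7SL genes were far lower and varied more. Rn7s1 was at 111 CPM in total RNA with DMSO (95% interval 106 to 116), 8.23 CPM with ADAR1i-124 (6.95 to 9.68) and 34.9 CPM with 5-AZA-CdR (33.0 to 36.9). Rn7s2 was at 86.0, 21.3 and 91.1 CPM in the same libraries. The ADAR1i-124 library was thus the lowest of the 3 for both genes, while the 5-AZA-CdR library was low for Rn7s1 and level with DMSO for Rn7s2.
In J2 libraries Rn7s1 was at 17.0 CPM in DMSO cells, 10.4 after ADAR1i-124, 47.8 after 5-AZA-CdR and 9.77 after the combination, and Rn7s2 was at 28.2, 19.6, 75.7 and 23.8 CPM. In Z22 libraries Rn7s1 was at 3.90, 10.9, 11.4 and 14.5 CPM in the same order, and Rn7s2 at 8.94, 33.8, 17.1 and 19.6 CPM. Of the J2 libraries that of 5-AZA-CdR cells was the highest for both genes, and of the Z22 libraries that of DMSO cells was the lowest. IgG had 57.0 CPM of Rn7s1 and 104 CPM of Rn7s2, above every J2 and Z22 library for both genes.

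**Figure D1:**
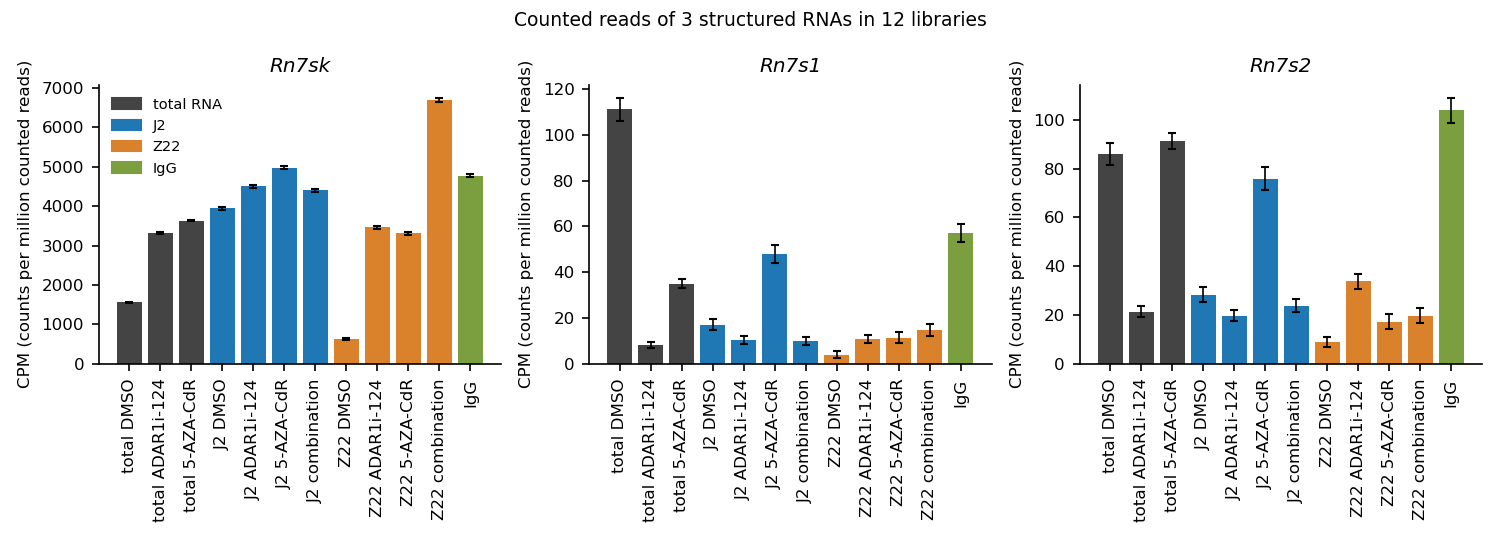
CPM of Rn7sk, Rn7s1 and Rn7s2 in 12 libraries, 1 library per bar, coloured by fraction, on axes that start at 0 and differ between the 3 panels, with exact 95% intervals of counting error. Rn7sk lies between 630.2 and 6697 CPM, and both 7SL genes are below their IgG bar in all J2 and Z22 libraries.

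The counts of the identical genes Rn7s1 and Rn7s2 were not divided evenly between them, nor in a constant ratio. Rn7s1 took 56.3% (54.6 to 58.0%) of the 3351 counts of the pair in total RNA with DMSO, but 27.9% (24.1 to 32%) of 520 with ADAR1i-124 and 27.7% (26.4 to 29.1%) of 4358 with 5-AZA-CdR. In J2 it took 29.1 to 38.7%, in Z22 24.4 to 42.6% and in IgG 35.4%. The DMSO library of total RNA was the only 1 of 12 in which Rn7s1 had more counts than Rn7s2. Summed over both genes, 7SL was at 197 CPM with DMSO, 29.5 with ADAR1i-124 and 126 with 5-AZA-CdR in total RNA, at 30.0 to 123 CPM in J2, at 12.8 to 44.7 CPM in Z22 and at 161 CPM in IgG. The sum does not depend on how reads were divided between the pair, though it still depends on whether reads with several matches were counted.

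**Figure D2:**
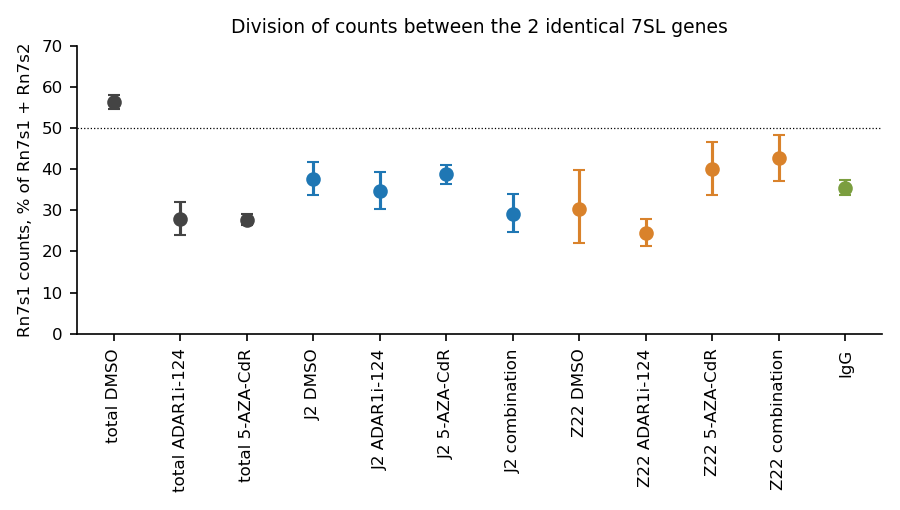
Share of the summed Rn7s1 and Rn7s2 counts that was assigned to Rn7s1, in percent, in each of 12 libraries, with exact 95% intervals and a dotted line at 50%. The total RNA library of DMSO cells lies at 56.3%, and the other libraries lie between 24.4 and 42.6%.

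Relative to each other, 7SK and 7SL moved widely. There were 7.90 counts of Rn7sk for each count of Rn7s1 and Rn7s2 together in total RNA of DMSO cells, 113 with ADAR1i-124 and 28.8 with 5-AZA-CdR. IgG had 29.7, the J2 libraries had 40.3 to 150 and the Z22 libraries had 49.1 to 196. This ratio lies within a library, so the library total does not enter it.

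The effect of the compounds was compared with DMSO within each fraction, as the log2 ratio of CPM after adding 0.5 CPM, and changes of at least 2-fold were counted. These 8 comparisons share the DMSO library of their fraction. Rn7s1 and Rn7s2 enter the counts of members as 2 genes although their reads cannot be told apart. Their sum was at least 2-fold higher in 4 of the 8 comparisons, lower in 1 and within 2-fold in 3. It was higher in J2 with 5-AZA-CdR, as were 8.61% of all genes, and in all of Z22, as were 42.9%, 52.1% and 43.4%. It was lower in total RNA with ADAR1i-124, as were 8.70% of all genes. In total RNA with ADAR1i-124, Rn7sk was 2.14-fold higher (log2 ratio 1.10, 95% interval 1.08 to 1.12), Rn7s1 was 12.8-fold lower (-3.67, -4.01 to -3.51) and Rn7s2 was 3.97-fold lower (-1.99, -2.18 to -1.85). Thus 1 of 3 members was at least 2-fold higher, as were 7.71% of 13693 genes, and 2 of 3 were at least 2-fold lower, as were 8.70%. The summed 7SL genes were 6.58-fold lower (log2 ratio -2.72). Only 0.504% of the genes had a lower ratio than Rn7s1 and 2.08% a lower ratio than Rn7s2.
With 5-AZA-CdR, Rn7sk was 2.34-fold higher (1.22, 1.21 to 1.24) and Rn7s1 3.15-fold lower (-1.65, -1.77 to -1.56), while Rn7s2 had a log2 ratio of 0.08 (-0.01 to 0.17). Here 17.0% of 14391 genes were at least 2-fold higher and 8.96% lower. The identical partner genes thus gave different answers, and their sum was 1.56-fold lower (-0.64, -0.71 to -0.58), which is within 2-fold.
The 333 and 361 genes with 200 to 500 exonic bases, the size class of the members, had a median log2 ratio of -0.13 with ADAR1i-124 and -0.10 with 5-AZA-CdR. The part of transcript length in the ratios of the members was not tested.

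In J2 libraries the members stayed closer to DMSO, apart from 7SL with 5-AZA-CdR. With ADAR1i-124 the log2 ratios were 0.19 for Rn7sk, -0.68 for Rn7s1 and -0.51 for Rn7s2, and none of the 3 was at least 2-fold higher, against 7.37% of all genes. With 5-AZA-CdR, Rn7s1 was 2.76-fold higher (1.47, 1.27 to 1.73) and Rn7s2 2.66-fold higher (1.41, 1.25 to 1.61), with 0.33 for Rn7sk, so that 2 of 3 members were at least 2-fold higher against 8.61% of all genes. With the combination, none was at least 2-fold higher against 8.21%, and the log2 ratios were 0.16 for Rn7sk, -0.77 for Rn7s1 and -0.24 for Rn7s2.
The library of 5-AZA-CdR cells was thus the J2 library that stood apart for 7SL, while 7SK was within 2-fold of DMSO in all 3.

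In Z22 libraries all 9 log2 ratios of the members were above 0 on library totals, and all but that of Rn7s2 with 5-AZA-CdR (-0.03 with TMM factors, -0.13 with DESeq2 size factors) on the other scalings. Rn7sk was 5.49-fold higher with ADAR1i-124 (log2 ratio 2.46), 5.26-fold with 5-AZA-CdR (2.40) and 10.6-fold with the combination (3.41). The ratios of Rn7s1 were 1.38, 1.44 and 1.77 and those of Rn7s2 were 1.86, 0.90 and 1.09. All 3 members with ADAR1i-124 were at least 2-fold higher, 2 with 5-AZA-CdR and 3 with the combination, but so were 42.9%, 52.1% and 43.4% of all genes. These 8 of 9 member comparisons became 5 with TMM factors, with which 23.3%, 24.4% and 23.2% of all genes were at least 2-fold higher. They became 4 with DESeq2 size factors, with which 18.9%, 21.7% and 20.1% of all genes were. Rn7s1 was then within 2-fold in all 3 (0.59, 0.45 and 0.99), and so was Rn7s2 with the combination (0.26), while Rn7sk stayed past 2-fold at 1.59, 1.32 and 2.55.
These comparisons all rest on the Z22 library of DMSO cells, in which Gm42418 took 34.9% of the counts. The median log2 ratio of all genes was 0.81, 1.06 and 0.82, and relative to it Rn7sk was at 1.65, 1.33 and 2.59, Rn7s1 at 0.57, 0.37 and 0.95, and Rn7s2 at 1.05, -0.16 and 0.27. Without this library no DMSO comparison is possible in the Z22 fraction, and 7 of 15 member comparisons in total RNA and J2 were past 2-fold, where 15 of 24 were with it. The part of that library in these ratios was not tested.

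A change shared by the fractions was tested with edgeR over 11 libraries, with the fraction as a block, a test added after the data were seen. The combination has no total RNA library in these fits, so its change rests on 1 J2 and 1 Z22 library. No member passed an adjusted p of 0.05, against 0.185%, 3.65% and 2.75% of 14071 genes with ADAR1i-124, 5-AZA-CdR and the combination. For Rn7sk the log2 fold change was 0.89 with ADAR1i-124 (SE 0.43, adjusted p = 0.378), 0.84 with 5-AZA-CdR (SE 0.43, adjusted p = 0.354) and 1.41 with the combination (SE 0.50, unadjusted p = 0.0189, adjusted p = 0.209), the only 1 of the 9 member tests with an unadjusted p under 0.05. The DESeq2 Wald test called Rn7sk with the combination (adjusted p = 0.0479), where it called 6.69% of all genes, and no member with ADAR1i-124 (4.75%) or 5-AZA-CdR (8.25%). With no filter on low genes edgeR called it too (adjusted p = 0.000889), and with ADAR1i-124 it called Rn7sk (adjusted p = 0.0436) and Rn7s1 (adjusted p = 0.0342). Without the filter edgeR called 4.28% of 33781 genes with the combination and 2.56% with ADAR1i-124, and with 5-AZA-CdR it called no member and 4.84% of genes.
For Rn7s1 the log2 fold changes were -1.45 (SE 0.83), -0.11 (SE 0.80) and -0.85 (SE 0.98) in the same order of treatments, and for Rn7s2 they were -0.36 (SE 0.61), 0.52 (SE 0.58) and -0.45 (SE 0.70), with adjusted p from 0.450 to 0.966. Without the Z22 library of DMSO cells those of Rn7sk were 0.54, 0.51 and 0.95, those of Rn7s1 were -2.23, -0.73 and -1.78 and those of Rn7s2 were -0.76, 0.24 and -0.86, and none was called (adjusted p from 0.331 to 0.892). Of 14179 genes, edgeR then called 0 with ADAR1i-124. It called 307 higher and 89 lower with 5-AZA-CdR, and 229 higher and 47 lower with the combination. Without all 4 Z22 libraries the change of Rn7sk with the combination was 0.32, and without the J2 libraries it was 2.42, each from 1 combination library. That of Rn7s1 with ADAR1i-124 was -0.07 without total RNA. These fits assume the same change in every fraction, whereas some of the ratios above had opposite signs in different fractions.

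**Figure D3:**
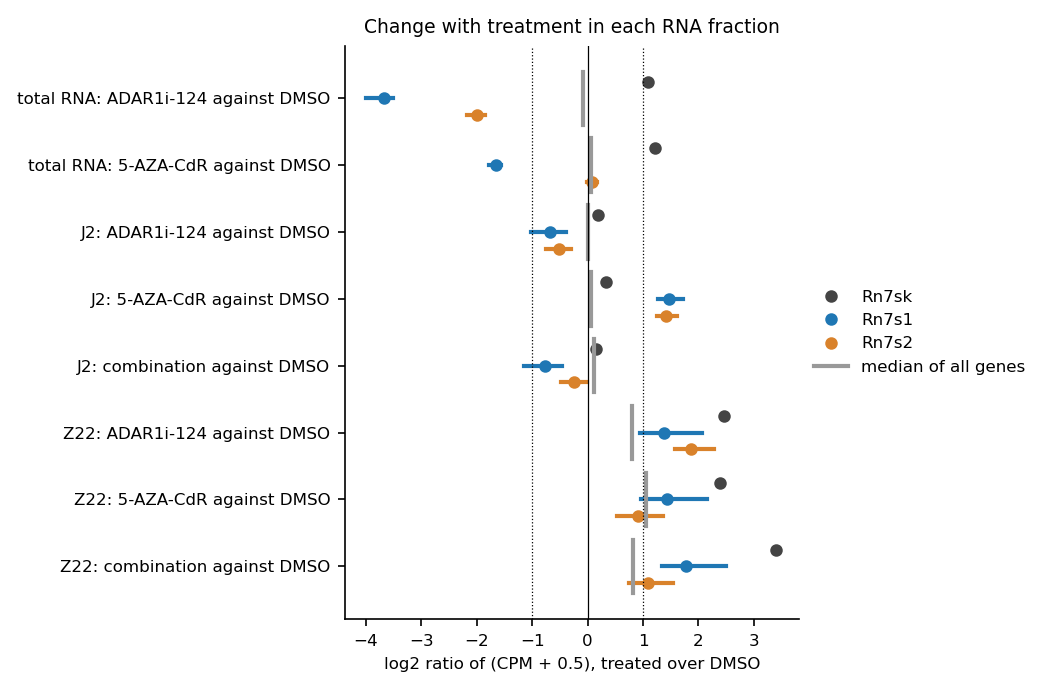
Log2 ratio of (CPM + 0.5), treated over DMSO, for Rn7sk, Rn7s1 and Rn7s2 in 8 comparisons, with exact 95% intervals of counting error, the median of all genes as a grey bar and dotted lines at 2-fold. In total RNA with ADAR1i-124 Rn7sk lies at 1.10 and the 7SL genes at -3.67 and -1.99, and in Z22 all 9 points and the gene medians lie to the right of 0, though that of Rn7s2 with 5-AZA-CdR falls to -0.03 with TMM factors.

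The antibodies were then compared with IgG, the control for RNA that comes down without a specific antibody. CPM is a share of the counts of a library, so a share above or below IgG does not give the amount of RNA precipitated. No member was at least 2-fold above IgG in any of the 8 precipitated libraries. The shares of all genes that were are 13.5%, 5.63%, 13.0% and 17.9% in J2, in the order DMSO, ADAR1i-124, 5-AZA-CdR, both compounds, and 11.3%, 7.15%, 21.4% and 17.0% in Z22, and against this background 0 of 3 is not a result about the members. Rn7s1 and Rn7s2 were each at least 2-fold below IgG in 7 of 8 libraries, and within 2-fold only in J2 of 5-AZA-CdR cells (log2 ratios -0.25 and -0.45). The sum of both genes was likewise lower in 7 of 8 and within 2-fold in 1. Rn7sk was within 2-fold of IgG in 7 of 8 and at least 2-fold lower only in Z22 of DMSO cells.
In J2, Rn7s1 was 3.29-fold, 5.26-fold and 5.59-fold below IgG with DMSO, ADAR1i-124 and the combination, and Rn7s2 was 3.64-fold, 5.19-fold and 4.29-fold below it. These 2 of 3 members stood against 8.97%, 4.46% and 7.98% of all genes at least 2-fold lower, and 0 of 3 with 5-AZA-CdR stood against 5.57%. The log2 ratios of Rn7sk in J2 were -0.28 in DMSO cells, -0.08 after ADAR1i-124, 0.06 after 5-AZA-CdR and -0.12 after the combination, of which the third changed sign with the scaling as given above.
In Z22, Rn7s1 was 13.1-fold, 5.04-fold, 4.83-fold and 3.82-fold below IgG in the same order of treatments, and Rn7s2 was 11-fold, 3.04-fold, 5.91-fold and 5.19-fold below it. With DMSO all 3 members were at least 2-fold lower, as were 45.4% of all genes, whose median log2 ratio was -0.83. With DESeq2 size factors in place of library totals, the log2 ratios in this library moved from -3.71 to -2.98 for Rn7s1, from -3.47 to -2.69 for Rn7s2 and from -2.92 to -2.11 for Rn7sk. After each of the other treatments 2 of 3 members were, in that order against 1.85%, 5.13% and 10.7% of all genes.
In Z22 of ADAR1i-124 cells only 0.124% of 12922 genes had a lower ratio than Rn7s2. Rn7sk in Z22 was 7.57-fold below IgG with DMSO, at log2 ratios of -0.47 and -0.53 with ADAR1i-124 and 5-AZA-CdR, and 1.40-fold above with the combination (0.49, 0.47 to 0.50). Leaving out the Z22 library of DMSO cells, 12 of 21 member comparisons were past 2-fold, against 15 of 24 with it, and all of them were below IgG.
The 8 comparisons share 1 IgG library and are not independent. The third 7SL gene, Rn7s6, was at 17.8 CPM in IgG against 5.78 to 19.8 CPM in J2 and 1.15 to 5.75 CPM in Z22.

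**Figure D4:**
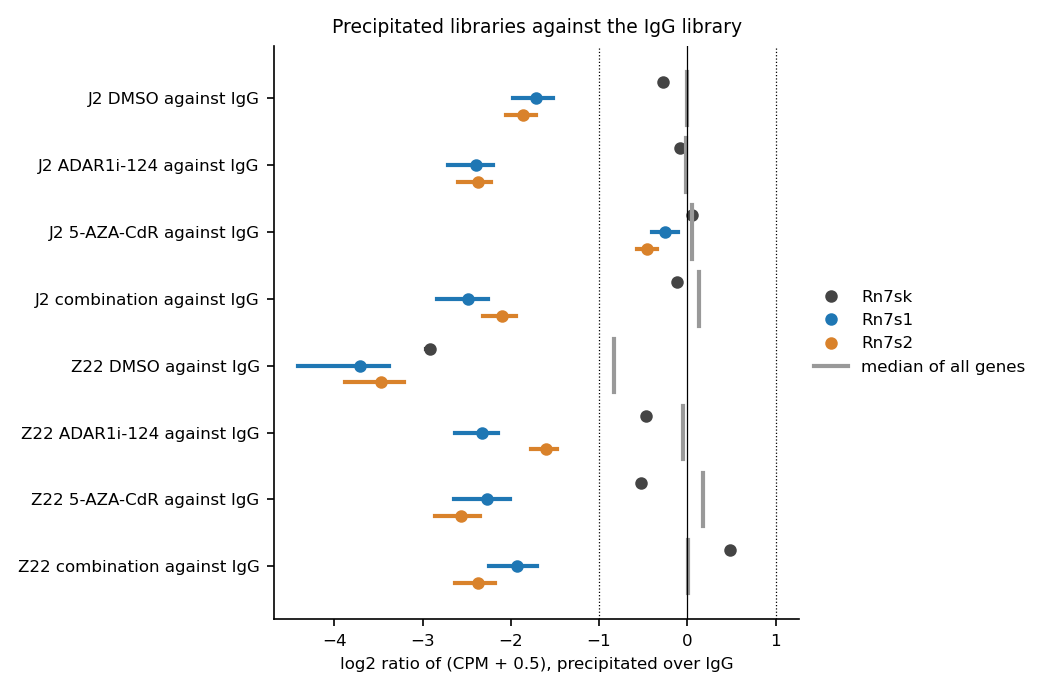
Log2 ratio of (CPM + 0.5), precipitated over IgG, for Rn7sk, Rn7s1 and Rn7s2 in 8 libraries, with exact 95% intervals of counting error, the median of all genes as a grey bar and dotted lines at 2-fold. All 16 points of the 7SL genes lie left of 0, and 14 of them lie left of -1, while Rn7sk lies within 2-fold of IgG in all but Z22 DMSO.

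Whether the precipitated fractions differ from total RNA or from each other was tested with edgeR over 11 libraries, taking the treatment as a block, so that libraries with different treatments stand in for replicates and the error is the spread left after fraction and treatment are fitted. No member passed an adjusted p of 0.05 in any of the 3 contrasts. For J2 against total RNA the log2 fold change was 0.94 for Rn7sk (SE 0.41, adjusted p = 0.358), -0.65 for Rn7s1 (SE 0.76, adjusted p = 0.748) and -0.43 for Rn7s2 (SE 0.55, adjusted p = 0.777). For Z22 against total RNA it was 0.37 for Rn7sk (SE 0.43, adjusted p = 0.614), -1.26 for Rn7s1 (SE 0.82, adjusted p = 0.355) and -0.91 for Rn7s2 (SE 0.59, adjusted p = 0.356).
For Z22 against J2 it was -0.58 for Rn7sk (SE 0.39, adjusted p = 0.482), -0.61 for Rn7s1 (SE 0.68, adjusted p = 0.670) and -0.48 for Rn7s2 (SE 0.52, adjusted p = 0.659). Over all 14071 genes, edgeR called 0.320% for J2 against total RNA, 0.782% for Z22 against total RNA and 0% for Z22 against J2, where 2048 genes had an unadjusted p under 0.05 and the DESeq2 Wald test called 257 higher and 111 lower. DESeq2 called none of the 3 members in any contrast, against 3.94% of all genes for J2 against total RNA, 12.9% for Z22 against total RNA and 2.62% for Z22 against J2. With no filter on low genes edgeR called 1, Rn7s1 in Z22 against total RNA (adjusted p = 0.0194), where it called 5.36% of 33781 genes, against 1.95% and 1.64% in the J2 against total RNA and Z22 against J2 contrasts, where it called no member.
Without the Z22 library of DMSO cells, the log2 fold changes for Z22 against total RNA were 0.65 for Rn7sk, -0.49 for Rn7s1 and -0.57 for Rn7s2, and those for Z22 against J2 were -0.27, -0.17 and -0.24 in the same order. For J2 against total RNA they were 0.92, -0.32 and -0.33. No member was called without it (edgeR, adjusted p from 0.192 to 0.972). Of 14179 genes, edgeR then called 0 for Z22 against J2. It called 212 higher and 112 lower for J2 against total RNA, and 118 higher and 31 lower for Z22 against total RNA.
The ratio of J2 to total RNA in each treatment rests on 1 library of each fraction, and its difference between treatments was not tested. The summed 7SL genes were 4.33-fold lower in J2 than in total RNA with DMSO, and had log2 ratios of 0.02 (-0.16 to 0.21) with ADAR1i-124 and -0.03 (-0.11 to 0.05) with 5-AZA-CdR. Rn7sk was 2.54-fold higher in J2 than in total RNA with DMSO, and had log2 ratios of 0.44 and 0.45 with ADAR1i-124 and 5-AZA-CdR. Without the libraries of DMSO cells the edgeR log2 fold change of J2 against total RNA was 0.51 for Rn7s1, the opposite sign.

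Telomerase RNA (Terc, chr3:96414437-96414859, minus strand, 423 bases) was near the floor of detection. It had 66 counts over 12 libraries, with 10, 2 and 14 counts in total RNA, 4 to 7 in each J2 library, 1 to 7 in each Z22 library and 5 in IgG. Its highest value was 0.588 CPM (0.282 to 1.08) in total RNA of DMSO cells, where the floor of 3 counts is 0.176 CPM. A difference between libraries was not detectable at this depth in the J2, Z22 and IgG libraries, whose intervals overlap. In total RNA the log2 ratio of ADAR1i-124 to DMSO was -0.83, from 2 against 10 counts. Its interval of counting error was -5.60 to -0.14, with 1 library on each side.

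RNase MRP RNA and RNase P RNA had 0 counts in all 12 libraries, where the floor of 3 counts, used for a count of 0 in place of an exact interval, is 0.0868 to 0.367 CPM. This floor applies to reads assigned to these rows and sets no limit on the RNA itself, since the handling of overlapping genes is not given. Both Rmrp rows were at 0. They lie on top of each other on the minus strand, with the shorter row (chr4:43492788-43493058) inside the longer (chr4:43492783-43493063), so that 10 bases belong to the longer row alone. An exon of Ccdc107, on the opposite strand, covers part of both rows (chr4:43492900-43493023), and Ccdc107 had 1336 counts over 12 libraries.
Rpph1 (chr14:50807449-50807767) shares 233 of its 319 bases, positions 36 to 268, with an exon of Ccnb1ip1 on the same strand, which leaves the 86 bases outside it, 67 of them the capitals shown above. Ccnb1ip1, a gene of meiotic recombination, had 49 counts over 12 libraries, with 1 count in J2 of DMSO cells, 0 in the other libraries of DMSO cells and 0 in IgG. Its highest values were 19 counts in J2 and 9 in Z22 of 5-AZA-CdR cells.
Among the table's genes of 200 to 500 exonic bases, 80 of 83 (96.4%) whose bases all lie under same-strand exons of other genes had 0 counts in the 12 libraries, as had 35 of 49 (71.4%) covered for 50% or more, 26 of 79 (32.9%) covered for less than 50% and 4506 of 7628 (59.1%) with no such overlap. The part of overlapping annotation in the 0 counts of Rmrp and Rpph1 was not tested. The 2 miRNA models that lie on each 7SL gene cover 147 of its 300 bases on the same strand and had 0 counts, while Rn7s1 and Rn7s2 had 5641 and 9382 counts.

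The proteins that work with these RNAs were described in total RNA from 6 lists of 57 genes, all of which have a row. With ADAR1i-124, 54 genes reached a mean of 1 CPM, of which 2 were higher and 3 lower by 2-fold or more, and with 5-AZA-CdR 55 genes reached it, of which 2 were higher and 10 lower. The all-gene shares are those given for these comparisons above.
Of 7 genes of the 7SK particle and P-TEFb, 2 were at least 2-fold lower with ADAR1i-124 and 1 with 5-AZA-CdR, and none was higher. Larp7, which binds the 3′ end of 7SK, was at 48.7 CPM with DMSO, 22.4 with ADAR1i-124 (log2 ratio -1.11) and 12 with 5-AZA-CdR (-1.98), in the libraries where 7SK itself was over 2-fold higher. The other gene that was lower with ADAR1i-124 was Hexim2 (0.624 CPM against 3.23, log2 ratio -1.73), named after its values were seen. Its relative Hexim1, which keeps the kinase inactive, had a log2 ratio of -0.67 with ADAR1i-124. The kinase gene Cdk9 had 0.51 and 0.44 with ADAR1i-124 and 5-AZA-CdR, and the cyclin gene Ccnt2 had 0.50 with 5-AZA-CdR.
Of 9 genes of the signal recognition particle and its receptor, 1 was at least 2-fold higher and 1 lower with ADAR1i-124, and none either way with 5-AZA-CdR. The genes Srp14, Srp19 and Srp9, whose proteins bind 7SL directly, had log2 ratios of -1.01, -0.81 and -0.75 with ADAR1i-124 and -0.43, -0.66 and -0.65 with 5-AZA-CdR. With ADAR1i-124 only Srp14 of these was past 2-fold. The higher gene was Srp54a (5.05 CPM against 1.76), named after its values were seen, whose counts are uncertain because it has near-identical neighbours.
Of 10 genes of the RNase P and RNase MRP proteins, none passed 2-fold with ADAR1i-124 and 3 were lower with 5-AZA-CdR (median log2 ratio -0.81). Rpp30 was at -1.26, Pop1 at -0.92 and Rpp14 at -0.84 with 5-AZA-CdR, and Pop1 was at 0.72 with ADAR1i-124. The lower genes beside Rpp30 were Rpp38 (-1.75) and Rpp40 (-1.42), named after their values were seen.
Of the telomerase and H/ACA proteins, none of 6 passed 2-fold with ADAR1i-124, and with 5-AZA-CdR 5 of 7 were lower and 1 higher (median -1.27). Dkc1, the pseudouridine synthase of these particles, was at 130 CPM with DMSO and 29.7 with 5-AZA-CdR (-2.12), with Nop10 at -1.49 and Gar1 at -1.30. Nhp2 was at 0.86 with ADAR1i-124 and at -1.10 with 5-AZA-CdR. Named after their values were seen, Naf1 was lower with 5-AZA-CdR (-1.27) and Tert, the catalytic subunit, was higher, at 60 counts (1.74 CPM) against 5 (0.294 CPM).
The 12 genes of promoter factors and La, which serve the type of RNA polymerase III promoter that 7SK, RNase P and RNase MRP genes have, stayed within 2-fold in both comparisons (medians 0.03 and 0.00). Maf1, the repressor of this polymerase, was at -0.99 with ADAR1i-124, and Snapc1 at 0.73 with 5-AZA-CdR. Of 10 polymerase III subunit genes, Polr3d was higher with ADAR1i-124 (1.09), and with 5-AZA-CdR Polr3gl was higher (1.41) and Polr3b lower (-1.32).

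Other small structured RNAs were given as a comparison from a list of 13 symbols, of which 11 have a row and 5 reached a mean of 1 CPM over 12 libraries. Rn7s6 was at 37.2 CPM with DMSO, 5.79 with ADAR1i-124 and 5.26 with 5-AZA-CdR in total RNA, 5.99-fold and 6.54-fold lower. In 5-AZA-CdR cells the 3 genes of the 7SL family thus stood at -2.71 (Rn7s6), -1.65 (Rn7s1) and 0.08 (Rn7s2) on the log2 scale. The vault RNA Vaultrc5 was at 1.70 to 2.78 CPM in total RNA, 12 to 28.9 in J2, 21.8 to 53.2 in Z22 and 90.4 in IgG. Like Rn7s1 and Rn7s2 it was lower in every precipitated library than in IgG, whereas Rn7s6 was at 19.8 CPM in J2 of 5-AZA-CdR cells against 17.8 in IgG (log2 ratio 0.15, -0.10 to 0.40). Vaultrc5 was also lower in total RNA than in any precipitated library.
The RNA Bc1 was at 0 to 0.176 CPM in total RNA, 4.33 to 16.6 in J2, 0.344 to 8.96 in Z22 and 9.98 in IgG. The minor spliceosome RNAs Rnu11 and Rnu12 were at 0.529 to 1.19 and 1.41 to 1.59 CPM in total RNA, and at 2.74 and 3 CPM in IgG.
Gm24447, the partial copy of 7SK, was chosen after its values were seen. It was at 53.0 CPM in total RNA with DMSO, 346 with ADAR1i-124 and 237 with 5-AZA-CdR, and its counts came to 3.15 to 10.4% of those of Rn7sk over the 12 libraries. Summed with it, 7SK was 2.28-fold higher with ADAR1i-124 and 2.41-fold with 5-AZA-CdR in total RNA.

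The genes most like each member over the 12 libraries were found among 8889 genes with a mean of 10 CPM by Pearson's r of log2(CPM + 0.5), a description whose points share libraries and the low Z22 library of DMSO cells. For Rn7sk they were the small nucleolar RNA gene Gm26397 (r = 0.955), Coro1b, which encodes an actin-binding coronin (r = 0.938), and the small nucleolar RNA gene Gm24727 (r = 0.927). For Rn7s1 they were the small Cajal body RNA gene Gm22442 (r = 0.925), Rn7s2 (r = 0.924) and Atp5e, a subunit of ATP synthase (r = 0.921). For Rn7s2 they were Rn7s1 (r = 0.924), Gm22442 (r = 0.911) and B4gat1, a glycosyltransferase (r = 0.903).
Without the Z22 library of DMSO cells r was 0.876, 0.819 and 0.782 for the 3 genes most like Rn7sk, and 0.866 to 0.926 for those most like Rn7s1 and Rn7s2.
Between Rn7sk and the 7SL genes Rn7s1 and Rn7s2 r was 0.215 and 0.294, but -0.390 and -0.277 without that library, so its sign rests on 1 library, and between Rn7sk and its partial copy Gm24447 it was 0.737. With Rn7s6, r was 0.910 for Rn7s1, 0.790 for Rn7s2 and 0.314 for Rn7sk, and 0.886, 0.701 and -0.437 without that library. For Rn7sk and Gm24447 it was 0.658 without it.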

How the data were processed

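Total RNA, J2, Z22 and IgG precipitates of YUMM1.7 cells were analysed, 1 library per condition. The authors mapped paired reads of 150 bases with STAR in snakePipes 2.8.0 to build mm10 (GRCm38), and deposited whole-number counts per gene without normalization. Alignment used GENCODE release 19 of that build per the study's methods. The counting tool, its strand setting and its handling of reads with several matches are not given in the sources used here.

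Identifiers without version were matched to GENCODE M21, the release at hand rather than that of the alignment, which left 37 of 54532 rows unmatched. Counts were divided by the library's summed counts to give CPM, with 0.5 CPM added before log2. Genes with a mean of 1 CPM over the libraries compared entered the background counts. Intervals are exact binomial intervals at 95%, and 3 counts is the floor. With 1 library per condition no treatment was tested within a fraction. A treatment change shared by the fractions was tested in the same 11 libraries with the fraction as a block, an addition made after the data were seen. Fractions were compared by edgeR's quasi-likelihood test with TMM factors, the treatment as a block, IgG left out, and Benjamini-Hochberg adjustment over 14071 genes, with DESeq2 as an alternative. These calculations were tested on simulated counts. Members and gene lists were chosen with earlier results of these data known.

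Named genes were the members, the 3 genes of each partner list with the largest change in a total RNA comparison at a mean of 10 CPM, the other structured RNAs at a mean of 1 CPM, and the 3 genes most like each member, besides those said to be named after their values were seen. Windows of 50 and 150 bases were searched on both strands of the GRCm38.p6 chromosomes and unplaced contigs. Structures were predicted with ViennaRNA 2.7.2, and alignments were global, with Biopython 1.88. Other tools were edgeR 4.0.16, DESeq2 1.42.0 and R 4.3.3, and Python 3.11.15 with numpy 2.4.6, pandas 2.3.3, scipy 1.17.1 and matplotlib 3.10.9.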

Additional observations from a re-analysis of the deposited data

Results flagged for a closer look

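In 8 pairs of fractions the 7SL genes moved in opposite directions with the same treatment, each beyond counting error. With 1 library per condition the difference itself was not tested, and 7 of the 8 rest on the Z22 library of DMSO cells, whose gene median moved by 0.81 to 1.06. With ADAR1i-124, the log2 change of Rn7s1 in Z22 exceeded that in total RNA by 5.05 (1.38 against -3.67) and that in J2 by 2.06. For Rn7s2 the same differences were 3.85 (1.86 against -1.99) and 2.37. With 5-AZA-CdR, the change of Rn7s1 exceeded that in total RNA (-1.65) by 3.12 in J2 and by 3.09 in Z22, although the identical gene Rn7s2 was at 0.08 in total RNA. With the combination, the change in Z22 exceeded that in J2 by 2.54 for Rn7s1 and by 1.33 for Rn7s2. Rn7sk was higher than DMSO in all 8 comparisons.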

How the results depend on the processing

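The count of 15 of 24 member comparisons past 2-fold against DMSO was 11 to 15 with TMM factors, DESeq2 size factors, totals without the 20 top genes, pseudocounts of 0.1 and 2 CPM and no filter. It was 4 with a line at 4-fold and 7 without the Z22 library of DMSO cells, both lower by construction. Of the 15, 8 were in Z22, where 42.9%, 52.1% and 43.4% of all genes were at least 2-fold higher too. The shares for total RNA and J2 are given above. The count against IgG was 11 to 15 under all alternatives. On library totals all of these were below IgG, as were 1.85 to 45.4% of all genes by 2-fold or more. The edgeR fraction contrasts called 0 members under all alternatives but 1, Z22 against total RNA with no filter, which called 1 (Rn7s1) and 5.36% of all genes. Of 13757 to 14242 genes, the leave-one-out fits called 0 to 68 higher and 0 to 16 lower in Z22 against J2. They called 0 to 1010 and 0 to 1105 in J2, and 7 to 839 and 0 to 817 in Z22, against total RNA. Against these counts 0 of 3 is not a result about the members. Signs turned for Rn7sk in Z22 against total RNA with library totals (-0.114), which moved the median of all genes to -0.553. In the leave-one-out fits Rn7s2 ranged from -1.122 to 0.062 in Z22 against J2 and from -0.728 to 0.067 in J2 against total RNA, and Rn7s1 from -1.423 to 0.505 in J2 and from -2.291 to 0.080 in Z22 against total RNA, with the upper ends reached without 5-AZA-CdR cells in the first and without DMSO cells in the others. The cause was not tested. Summing Rn7s1 and Rn7s2, added after seeing the data, ended the fall of Rn7s1 past 2-fold with 5-AZA-CdR in total RNA (-0.64). The labels give no replicate numbers, so libraries were matched by treatment alone, and without this block edgeR also called 0 members in each fraction contrast. Of 14071 genes it then called 0 higher and 1 lower for Z22 against J2. It called 27 and 4 for J2, and 39 and 10 for Z22, against total RNA. For treatments over the fractions edgeR called 0 members, but with no filter 2 with ADAR1i-124 (2.56% of all genes) and 1 with the combination (4.28%), and DESeq2 called 1 with the combination (6.69%). There Rn7s1 with 5-AZA-CdR turned to 0.123 with library totals, which moved the median of all genes to 0.347. Leaving out a fraction at a time, Rn7sk ranged from 0.322 to 2.417 with the combination, each end from 1 combination library. Rn7s1 ranged from -2.508 to -0.068 with ADAR1i-124, from -1.024 to 1.113 with 5-AZA-CdR and from -2.333 to 0.142 with the combination. Rn7s2 ranged from -1.299 to 0.407 with ADAR1i-124 and from -0.029 to 0.861 with 5-AZA-CdR. Low depth limits Terc.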
